A study of Mus musculus with 9 samples.

Results

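Interferon inducible GTPases are cytosolic enzymes that cells make when interferon reaches their receptors. The 10 genes described are the guanylate binding proteins Gbp2, Gbp3, Gbp4, Gbp6, Gbp7 and Gbp9 and the immunity-related GTPases Irgm1, Irgm2, Igtp and Iigp1. They were chosen by symbol as members of these families. They are 10 of the 49568 gene rows in the count table, and all 10 were among the 14986 genes with enough counts to be tested. In the irradiated limb their summed level was above that of the opposite limb and of unirradiated mice in every library, and Gbp3 had the largest log2 fold change of the 10 in both comparisons. At an adjusted p of 0.05 no member passed the main test in any comparison. Gbp3, Gbp2 and Iigp1 passed when each irradiated limb was compared with the other limb of the same mouse.

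The gastrocnemius, a calf muscle, was taken from C57Bl6J mice at about 8 weeks of age for total RNA sequencing. RL is the limb that received 8.2 Gy in each of 3 sessions when the mice were 4 weeks old, and it was collected 3 weeks after irradiation. CL is the opposite limb of those same mice, and CTL comes from mice given 0 Gy. Each group has 3 libraries, each from a separate animal within its group. RL and CL libraries with the same number are the 2 limbs of 1 mouse, so the study holds 6 mice.

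Library totals ran from 30.8 to 44.6 M counts, and the 10 genes had between 22 and 568 counts each per library. Levels are given as CPM, counts per M after scaling by the trimmed mean of M values. Markers of the myofibre summed to 63000 to 95300 CPM, so the libraries carry skeletal muscle. These markers do not tell which muscle it is. They were lower in every RL library (63000 to 76900 CPM) than in every CTL library (84900 to 95300 CPM), and the part of this difference in the results was not tested. CL 1 stood apart from the other libraries, with a median correlation of 0.969 to them against 0.979 to 0.987 for the rest. Its 14 T and NK lymphocyte markers summed to 12.9 CPM, against 0.193 to 1.16 CPM in the other 8 libraries, and counts and calls that moved without it are therefore also given without it. The muscle was sequenced whole, so more cells of a type that expresses these genes and more RNA per cell cannot be told apart.

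Interferon gamma acts on genes through the gamma activated site (GAS), while type I interferons act mainly through a factor complex with IRF9 that binds the interferon stimulated response element (ISRE). The guanylate binding proteins are large GTPases that assemble on the membranes of vacuoles that hold microbes and help to break them open. Among the immunity-related GTPases, Irgm1, Irgm2 and Igtp are regulators that sit on the cell's own membranes and keep the effectors inactive there, while Iigp1 is an effector that loads onto the vacuole of a parasite. In skeletal muscle, fibres, endothelium and resident macrophages can all respond to interferon.

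Promoter sequence was available in the RefSeq table (GRCm38.p6) for 6 of the 10 members, each window running from 250 bases before to 50 bases after a start site. Gbp4, Gbp6, Gbp9 and Iigp1 were not matched. Both strands were searched for the ISRE core, which is GAAA, any 2 bases and GAAA again, found in 3.44% of all 32851 windows, and for the GAS core TTCNNNGAA (N is any base), found in 8.3% of them. The 2 motifs do not overlap in these windows, and a match describes letters in the window and not a bound site. The windows below are shown because they belong to Gbp3, the member with the largest log2 fold change, to its neighbours Gbp2 and Gbp7 and to the near-duplicate pair Igtp and Irgm2. They are printed 5′ to 3′ on the strand of the gene, with capitals marking the 2 cores. In Gbp3, Gbp2 and Gbp7 the ISRE core lies on the other strand, so it reads TTTC, any 2 bases and TTTC here.
Gbp3, chr3:142559794-142560093, plus strand: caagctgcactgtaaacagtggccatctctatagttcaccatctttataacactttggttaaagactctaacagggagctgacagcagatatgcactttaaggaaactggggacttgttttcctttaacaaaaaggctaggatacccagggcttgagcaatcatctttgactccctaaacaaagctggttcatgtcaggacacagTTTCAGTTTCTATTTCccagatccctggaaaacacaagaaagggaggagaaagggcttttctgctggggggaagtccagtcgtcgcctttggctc
Gbp2, chr3:142620413-142620712, plus strand: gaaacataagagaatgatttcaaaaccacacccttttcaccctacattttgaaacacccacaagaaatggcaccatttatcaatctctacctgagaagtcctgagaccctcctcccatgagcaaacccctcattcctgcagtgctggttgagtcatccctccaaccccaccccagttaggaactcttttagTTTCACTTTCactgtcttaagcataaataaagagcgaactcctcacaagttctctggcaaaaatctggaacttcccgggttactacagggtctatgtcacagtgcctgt
Gbp7, chr3:142530086-142530385, plus strand: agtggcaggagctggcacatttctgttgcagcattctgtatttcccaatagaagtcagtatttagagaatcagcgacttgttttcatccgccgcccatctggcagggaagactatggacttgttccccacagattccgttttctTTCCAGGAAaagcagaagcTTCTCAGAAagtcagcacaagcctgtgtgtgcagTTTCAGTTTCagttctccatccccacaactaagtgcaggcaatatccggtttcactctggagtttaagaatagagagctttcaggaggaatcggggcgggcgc
Igtp, chr11:58199306-58199605, plus strand: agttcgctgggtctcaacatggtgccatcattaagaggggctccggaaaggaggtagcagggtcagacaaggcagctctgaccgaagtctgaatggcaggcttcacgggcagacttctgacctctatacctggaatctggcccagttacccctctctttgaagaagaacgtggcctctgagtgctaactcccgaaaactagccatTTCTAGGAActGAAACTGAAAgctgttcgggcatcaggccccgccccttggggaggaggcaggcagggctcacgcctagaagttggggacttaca
Irgm2, chr11:58214727-58215026, plus strand: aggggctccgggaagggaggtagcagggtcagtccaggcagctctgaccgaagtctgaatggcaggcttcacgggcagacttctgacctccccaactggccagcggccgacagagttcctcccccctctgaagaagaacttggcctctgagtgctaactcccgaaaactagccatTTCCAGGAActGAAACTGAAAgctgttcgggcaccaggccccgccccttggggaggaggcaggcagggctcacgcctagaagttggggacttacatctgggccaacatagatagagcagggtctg

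All 6 members searched held the ISRE core, and 3 of them, Gbp7, Igtp and Irgm2, also held the GAS core. Both cores together occurred in 0.454% of the 32851 full-length windows outside chromosome 18. In Gbp3 a pair of overlapping ISRE cores began at -45 and -39 relative to the start site, and in Gbp2 a single one began at -59. Irgm1, on the minus strand of chromosome 11, likewise had a pair of overlapping cores at -30 and -24. A further RefSeq start site of Gbp3 had neither core in its window. In Gbp7 the GAS cores at -106 and -87 lay upstream of an ISRE core at -53. Igtp and Irgm2 share most of their promoter letters: 244 of 265 aligned bases were identical (92.1%), and both have the GAS core directly upstream of the ISRE core, at -45 and -34 in Igtp and at -75 and -64 in Irgm2.

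Gbp3, Gbp2 and Gbp7 neighbour each other on chromosome 3 (GRCm38, plus strand). Gbp3 lies at chr3:142560026-142573209 and encodes a guanylate binding protein that takes part in the control of intracellular parasites in the mouse. Its level was 6.24, 5.04 and 6.29 CPM in RL 1 to 3, against 3.37, 2.56 and 2.33 CPM in CL 1 to 3 and 3.59, 3.41 and 2.74 CPM in CTL 1 to 3. All 3 RL libraries lay above all 6 others, and the CL and CTL libraries overlapped. The mean was 5.86 ± 0.705 CPM in RL, against 2.75 ± 0.549 CPM in CL and 3.24 ± 0.449 CPM in CTL (n = 3 each, SD). The log2 fold change was 0.85 ± 0.17 (SE) for RL against CTL and 1.08 ± 0.17 for RL against CL, which narrowly missed the threshold with adjusted p of 0.0557 and 0.0513 by edgeR's quasi-likelihood test with Benjamini-Hochberg adjustment over all genes.

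Gbp2, at chr3:142620602-142638008, encodes a guanylate binding protein that gathers on microbial vacuoles in mouse cells. It had 6.71, 6.59 and 6.84 CPM in RL 1 to 3, against 4.65, 4.14 and 4.22 CPM in CL 1 to 3 and 4.84, 5.61 and 4.85 CPM in CTL 1 to 3. No library of another group reached the lowest RL value, and every CL library was below every CTL library. Mean levels were 6.71 ± 0.129 CPM in RL, 4.34 ± 0.274 CPM in CL and 5.10 ± 0.440 CPM in CTL (n = 3 each, SD). RL was higher than CTL by 0.40 ± 0.12 on the log2 scale (edgeR adjusted p = 0.165) and higher than CL by 0.63 ± 0.12 (edgeR adjusted p = 0.101).

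Gbp7, at chr3:142530342-142550149, encodes a guanylate binding protein that mouse macrophages use against bacteria. Its 9 libraries all lay between 10.3 and 12.3 CPM, with 12.2, 10.3 and 10.7 CPM in RL 1 to 3, against 11.7, 11 and 12 CPM in CL 1 to 3 and 10.9, 12.3 and 11.2 CPM in CTL 1 to 3. The groups overlapped, and RL minus CTL was -0.05 ± 0.11 on the log2 scale (edgeR adjusted p = 0.904). Within 1 library, the count of Gbp3 was 0.488 to 0.586 times that of Gbp7 in RL, against 0.195 to 0.289 times in CL and 0.244 to 0.328 times in CTL. This ratio does not depend on the scaling of the library, but the pair was picked after its values were seen and was not tested.

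Gbp9, Gbp4 and Gbp6 lie on the minus strand of chromosome 5, where the models of Gbp4 and Gbp9 overlap each other and that of Gbp8. The sources used here do not state the counting rules, so the split of reads among these 3 genes is uncertain. Gbp9 had 11, 10.2 and 12.1 CPM in RL 1 to 3, against 9.73, 7.30 and 7.94 CPM in CL 1 to 3 and 9.46, 7.41 and 9.78 CPM in CTL 1 to 3. The lowest RL library was above the highest of the other 6, and RL minus CTL was 0.32 ± 0.14 on the log2 scale (edgeR adjusted p = 0.401).

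Gbp4 had another order of groups. It had 5.32, 5.78 and 6.46 CPM in RL 1 to 3, against 5.16, 4.96 and 4.04 CPM in CL 1 to 3 and 5.62, 8.48 and 6.51 CPM in CTL 1 to 3. The means were 5.85 ± 0.570 CPM in RL, 4.72 ± 0.599 CPM in CL and 6.87 ± 1.46 CPM in CTL (n = 3 each, SD), and CTL 2 lay far above the other CTL libraries. RL overlapped CTL and lay above CL, and RL minus CTL was -0.23 ± 0.16 on the log2 scale (edgeR adjusted p = 0.641).

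Gbp6 was the lowest of the 10, with 22 to 61 counts per library. Its level was 1.56, 1.32 and 1.36 CPM in RL 1 to 3, against 0.843, 0.943 and 0.615 CPM in CL 1 to 3 and 0.979, 0.620 and 0.922 CPM in CTL 1 to 3. RL did not overlap the other groups, and RL minus CTL was 0.75 ± 0.25 on the log2 scale (edgeR adjusted p = 0.236). Of the 50-base windows of the Gbp6 transcripts, 70.7% also occur in another gene and 65% occur in Gm43302, a model at 0 counts in all 9 libraries, so the reads counted as Gbp6 are not certain to be its own.

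Irgm1, at chr11:48861968-48871683 on the minus strand, encodes a regulator that mouse macrophages need to control mycobacteria. It had 11.9, 9.57 and 10.6 CPM in RL 1 to 3, against 7.88, 7.42 and 7.78 CPM in CL 1 to 3 and 8.05, 9.47 and 7.70 CPM in CTL 1 to 3. RL lay above both other groups, although RL 2 was only just above CTL 2. RL minus CTL was 0.34 ± 0.12 on the log2 scale (edgeR adjusted p = 0.25), and RL minus CL was 0.47 ± 0.12 (edgeR adjusted p = 0.446).

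Igtp and Irgm2, the other regulators, lie on the plus strand of chromosome 11, and the annotated model of Irgm2 (chr11:58199618-58222782) runs over that of Igtp (chr11:58199556-58207591). Of the 50-base windows of Igtp, 11.8% also occur in Irgm2. Irgm2 had 11.4, 9.40 and 10 CPM in RL 1 to 3, against 9.71, 7.96 and 7.78 CPM in CL 1 to 3 and 7.40, 11 and 7.08 CPM in CTL 1 to 3. Igtp had 5.4, 4.55 and 4.73 CPM in RL 1 to 3, against 3.99, 3.48 and 4.92 CPM in CL 1 to 3 and 4.57, 4.31 and 3.42 CPM in CTL 1 to 3. For both genes RL overlapped CL and CTL, with CL 1 and CTL 2 inside the RL range of Irgm2 and CL 3 and CTL 1 inside that of Igtp. RL minus CTL was 0.27 ± 0.17 on the log2 scale for Irgm2 and 0.25 ± 0.16 for Igtp (edgeR adjusted p = 0.572 and 0.601).

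Iigp1, the effector among the 4 immunity-related GTPases, lies on chromosome 18. It had 9.96, 8.42 and 10.3 CPM in RL 1 to 3, against 6.23, 5.25 and 7.62 CPM in CL 1 to 3 and 5.19, 7.89 and 5.32 CPM in CTL 1 to 3. Every RL library was above every other library, and CTL 2 and CL 3 came closest. The means were 9.56 ± 1.00 CPM in RL, 6.37 ± 1.19 CPM in CL and 6.14 ± 1.52 CPM in CTL (n = 3 each, SD). RL minus CTL was 0.64 ± 0.18 on the log2 scale (edgeR adjusted p = 0.152).

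**Figure D1:**
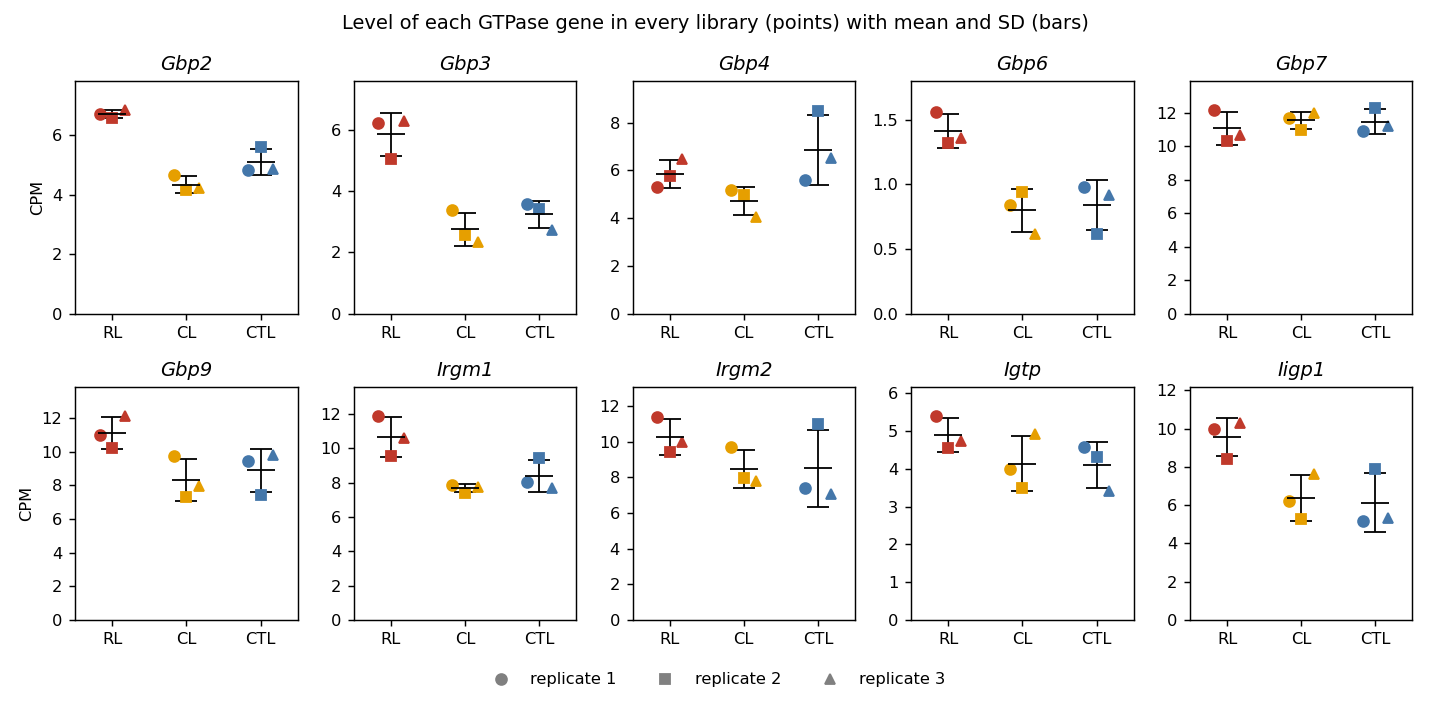
Level of each of the 10 GTPase genes in CPM (vertical axis, from 0) in RL, CL and CTL, with 1 point per library and the mean with its SD as bars. Gbp3 had 5.04 to 6.29 CPM in RL, against 2.33 to 3.37 CPM in CL and 2.74 to 3.59 CPM in CTL, while the groups of Gbp7 overlapped between 10.3 and 12.3 CPM.

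RL against CTL asks what differs between an irradiated limb and the limb of an unirradiated mouse. Of the 10 genes, 8 had a positive log2 fold change, beside 7281 of all 14986 genes. All 3 RL libraries were above all 3 CTL libraries for 6 members, namely Gbp2, Gbp3, Gbp6, Gbp9, Irgm1 and Iigp1. The same separation was met by 10.5% of all 14986 genes. No member passed at an adjusted p under 0.05 by edgeR, where 0.514% of all genes passed, and none passed by limma-voom, where 0.294% did. At an unadjusted p under 0.05, 6 members were higher in RL, against 6.56% of all genes. Their median log2 fold change was 0.33, beside -0.0083 over all genes tested, and the range was -0.23 (Gbp4) to 0.85 (Gbp3).

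Gbp3 was the member nearest to the threshold. DESeq2, run on the same counts, called it and no other member (adjusted p = 0.00567), where 2.05% of all genes were called. Without CL 1, edgeR called Gbp3 alone of the 10 (adjusted p = 0.00678, log2 fold change 0.86), where 3% of all genes were called higher in RL. In the authors' deposited table Gbp3 had a log2 fold change of 0.66 and an adjusted p of 0.00862, the only member under 0.05 there in this comparison, where 1.5% of all genes were under 0.05 and higher in RL. Leaving out 1 library at a time moved its edgeR adjusted p between 0.00678 and 0.271 and its log2 fold change between 0.74 and 0.95.

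RL against CL compares the limbs of the same mice. Gbp3 in RL was 1.85, 1.97 and 2.70 times that in CL in mice 1 to 3, Gbp2 was 1.44, 1.59 and 1.62 times, and Iigp1 was 1.60, 1.61 and 1.35 times. With mouse as a block in edgeR's fit of these 6 libraries, these 3 members rose in RL: Gbp3 by 1.09 ± 0.14 (SE) on the log2 scale (adjusted p = 0.00996), Iigp1 by 0.60 ± 0.11 (adjusted p = 0.0446) and Gbp2 by 0.63 ± 0.11 (adjusted p = 0.0467). In that fit 0.34% of all genes were called higher in RL. Irgm1 was 1.51, 1.29 and 1.36 times as high and did not pass (0.47 ± 0.10, edgeR adjusted p = 0.1).

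Counted over mice, 8 of the 10 genes were higher in RL in 3 of 3 mice. The exceptions were Igtp, at 1.35, 1.31 and 0.962 times its CL level, and Gbp7, at 1.05, 0.941 and 0.898 times. This count over mice was not made for all genes, so its size has no background beside it. In the fit of all 9 libraries 9 of the 10 had a positive log2 fold change, beside 7234 of all 14986 genes. In the fit of all 9 libraries without the block no member passed by edgeR, where 0.0734% of all genes did, and 6 members were higher at an unadjusted p under 0.05, against 2.08% of all genes. All 3 RL libraries were above all 3 CL libraries for 7 members, those that separated from CTL plus Gbp4, against 3.94% of all genes. DESeq2 called Gbp3 (adjusted p = 0.000313) and Gbp2 (adjusted p = 0.0207), where it called 0.213% of all genes, and limma-voom called no member, where it called 0.0534%. Without CL 1, edgeR called the same pair, with adjusted p of 0.00795 for Gbp3 and 0.0267 for Gbp2, where 0.844% of all genes were called higher in RL. The authors' deposited table also has these 2 under 0.05, with adjusted p of 0.000642 for Gbp3 and 0.0324 for Gbp2, and Irgm1 at 0.0540, where 0.178% of all genes were under 0.05 and higher in RL.

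CL against CTL asks whether the opposite limb of an irradiated mouse differs from that of an unirradiated one. No member passed by edgeR, DESeq2 or limma-voom, which called 0%, 0.155% and 0% of all genes in this comparison. Log2 fold changes ran from -0.54 (Gbp4) to 0.05 (Iigp1), with a median of -0.08 beside -0.0036 over all genes. Gbp4 was lower in CL with an unadjusted p of 0.00681 (-0.54 ± 0.16, edgeR adjusted p = 0.692), the only member under an unadjusted p of 0.05, where 2.19% of all genes were under it and lower in CL. All 3 CL libraries were below all 3 CTL libraries for Gbp2 and Gbp4, a separation met by 5.5% of all genes. The comparisons share libraries, so the values of RL against CTL and of RL against CL are not independent of each other.

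**Figure D2:**
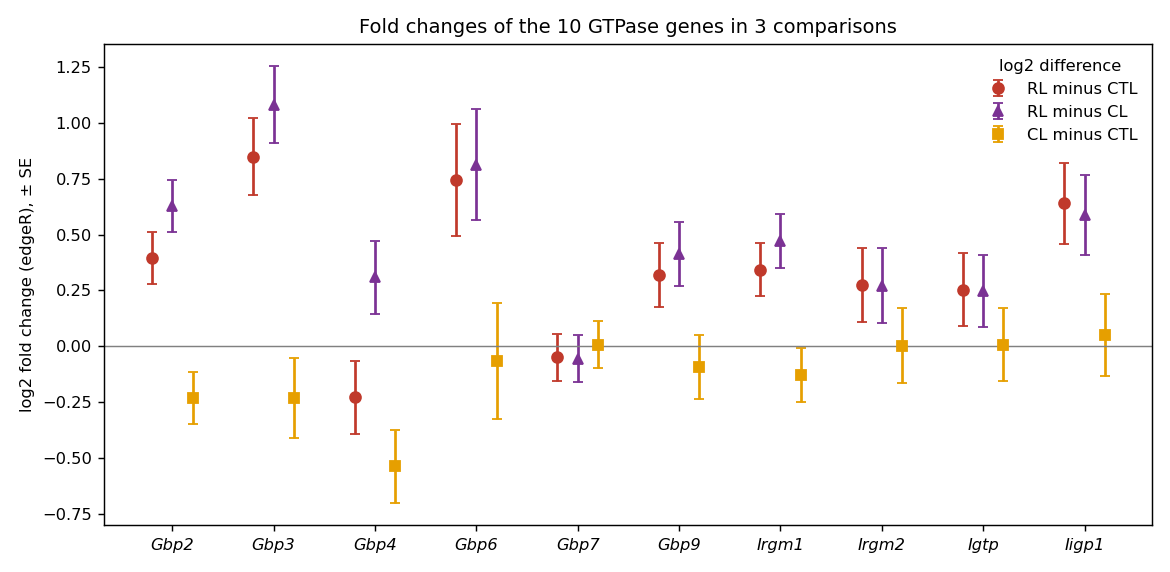
Log2 fold change of each gene (vertical axis) with its SE from edgeR's fit of all 9 libraries, for RL minus CTL, RL minus CL and CL minus CTL. Gbp3 had 0.85 and 1.08 in the comparisons of RL with CTL and CL, Gbp7 lay within 0.06 of 0 in all 3 comparisons, and Gbp4 was lowest in CL minus CTL at -0.54.

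Summed over the 10 genes, the level was 81.6, 71.2 and 79.4 CPM in RL 1 to 3, against 63.2, 55.0 and 59.2 CPM in CL 1 to 3 and 60.6, 70.5 and 59.5 CPM in CTL 1 to 3. RL 2 was above CTL 2 by less than 1 CPM, so the summed RL and CTL groups were separate but close. The means were 77.4 ± 5.51 CPM in RL, 59.1 ± 4.12 CPM in CL and 63.5 ± 6.01 CPM in CTL (n = 3 each, SD). CTL 2 was the highest CTL library for Gbp2, Gbp4, Gbp7, Irgm1, Irgm2 and Iigp1, and also had the lowest total and the lowest share of mitochondrial counts (31.1%) of the 9 libraries.

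Per kilobase of exon the mean over 9 libraries ran in the order Irgm2 (2.46 CPM per kb), Igtp (2.16), Gbp2 (2.14), Gbp7 (2.03), Gbp9 (1.82), Irgm1 (1.54), Iigp1 (1.26), Gbp3 (1.21), Gbp4 (0.776) and Gbp6 (0.171 CPM per kb). Most neighbours in this order were not separated by their spread. Irgm1 was above Iigp1 and Gbp4 above Gbp6 in 9 of 9 libraries, while Igtp was above Gbp2 in 5 and Gbp2 above Gbp7 in 4. In RL alone Gbp2 stood at the second place and Gbp7 at the fifth, whereas in CL and in CTL Gbp7 stood at the second place and Gbp2 at the fourth.

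The rest of the family was read from a list of 21 other guanylate binding proteins, immunity-related GTPases, very large inducible GTPases and Mx proteins, of which 16 could be tested. None passed by edgeR in RL against CTL, and 7 were higher at an unadjusted p under 0.05, against 6.56% of all genes. DESeq2 called 2, where it called 2.05% of all genes, and 8 had separate groups with RL higher, against 10.5% of all genes. The median log2 fold change of the 16 was 0.75, with a range of -0.60 to 3.91. Without CL 1, 6 of the 16 were called higher by edgeR, where 3% of all genes were. These were Ifi47, Gm12250, 9930111J21Rik2, Gm1966, Mx1 and Mx2. GENCODE vM21 labels Gm12250 and Gm1966 as pseudogenes and Mx2 as a polymorphic pseudogene.

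Mx1, a gene of the dynamin-like Mx family that type I interferon induces, had the largest log2 fold change for RL minus CTL on the list. It had 2.92, 1.40 and 1.67 CPM in RL 1 to 3, against 1.56, 0.145 and 0.294 CPM in CL 1 to 3 and 0.0753, 0.113 and 0.208 CPM in CTL 1 to 3. CL 1 lay inside the RL range and the other 5 libraries lay far below it. RL minus CTL was 3.91 ± 0.78 on the log2 scale with all libraries (edgeR adjusted p = 0.0531) and 3.93 without CL 1 (edgeR adjusted p = 0.000752).

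CL 1 also had the highest CL level of Gm12250 (0.637 CPM, against 0.169 and 0.214 CPM in CL 2 and CL 3), Ifi47 (1.67 CPM, against 0.484 and 0.535 CPM) and Gm1966 (9.01 CPM, against 1.43 and 2.54 CPM). Among the 10 described genes CL 1 was less distinct. It was the highest CL library for 6 of them but above the lowest RL library for Irgm2 and Gbp7 only.

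Gbp2b, which lies between Gbp3 and Gbp2 on chromosome 3, fell below the filter on low counts and was named after its values were seen. It had 11, 9 and 19 counts in RL 1 to 3, against 2, 1 and 2 counts in CL 1 to 3 and 1 count in each CTL library. The summed CPM ratio was 11.7 for RL over CTL (exact 95% interval 3.72 to 59.2, for counting error only) and 8.20 for RL over CL (3.23 to 26.7). DESeq2 gave it an adjusted p of 0.0616 in RL against CTL, and the authors' deposited table gave 0.0286. Against CL these were 0.394 by DESeq2 and 0.142 in the authors' deposited table. Without CL 1 Gbp2b passed edgeR's filter only through RL, the group where it is high, as no other library had more than 2 counts. Its log2 fold changes there, 3.42 for RL minus CTL and 2.99 for RL minus CL, are therefore a description and not a test. With no filter on low counts both comparisons were under 0.05 by edgeR (adjusted p = 0.00198 and 0.00929). Its RefSeq window also held an ISRE core, at -137, and no GAS core.

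**Figure D3:**
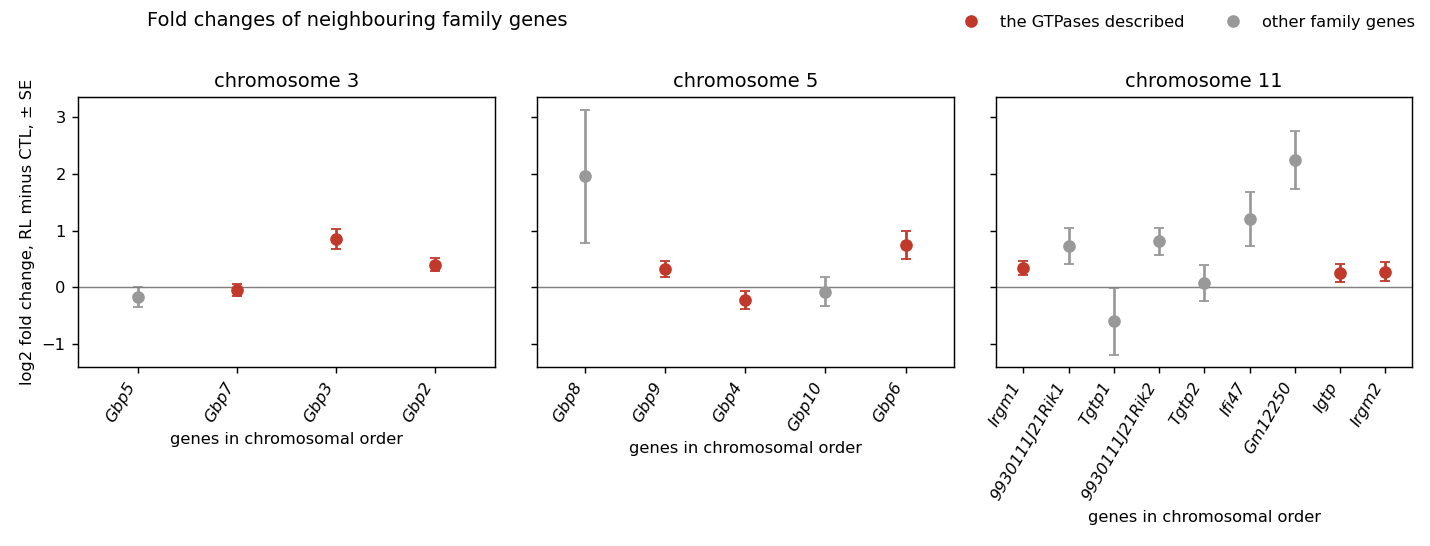
Log2 fold change of RL minus CTL with its SE (vertical axis) for family genes in chromosomal order on chromosomes 3, 5 and 11, with the described GTPases in red and other family genes in grey. On chromosome 3 Gbp3 (0.85) and Gbp2 (0.40) lay above 0 beside Gbp7 (-0.05) and Gbp5 (-0.17), and on chromosome 11 Gm12250 (2.24) stood above Igtp (0.25) and Irgm2 (0.27).

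Neighbouring genes thus had unequal values. On chromosome 3 Gbp5, a guanylate binding protein linked to inflammasome assembly, had 2.38, 2.25 and 2.40 CPM in RL 1 to 3, against 1.99, 1.52 and 2.03 CPM in CL 1 to 3 and 2.21, 2.73 and 3.00 CPM in CTL 1 to 3. Like Gbp4, it had its lowest values in CL, where all 3 libraries were below all 3 CTL libraries (-0.51 ± 0.18 on the log2 scale, edgeR adjusted p = 0.692). On chromosome 11 Gm12250 had 0.921, 0.539 and 0.801 CPM in RL 1 to 3, against 0.125, 0.169 and 0.178 CPM in CTL 1 to 3. These did not overlap, and the log2 fold change was 2.24 ± 0.51 (edgeR adjusted p = 0.0780).

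Upstream of the GTPases, interferon transcripts were at the limit of detection. Ifng, which encodes interferon gamma, had 1, 0 and 2 counts in RL 1 to 3, and 0 counts in all CL and CTL libraries. The other 6 interferon genes listed had 0 counts in all 9 libraries. A count of 0 allows up to 3 counts, which is 0.0617 to 0.0892 CPM depending on the library, so no difference was detectable at this depth.

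The receptors were well above that limit and did not pass in any direction. Ifngr1 averaged 18.9 CPM in RL, against 18.5 CPM in CTL (0.03 ± 0.10 on the log2 scale), and Ifngr2 averaged 37.3 CPM in RL, against 45.7 CPM in CTL (-0.29 ± 0.13, edgeR adjusted p = 0.388). For the type I receptor, RL minus CTL was 0.17 ± 0.13 for Ifnar1 and 0.28 ± 0.23 for Ifnar2. Of the 14 receptor, kinase and factor genes 0 were called by edgeR, 3 were higher and 1 lower at an unadjusted p under 0.05, DESeq2 called 1, edgeR without CL 1 called 1 and the median was 0.15. Over all genes 6.56% were higher at that p, DESeq2 called 2.05% and edgeR without CL 1 called 3% higher. Irf9, the DNA-binding part of the type I complex, had the smallest p of the 14 (0.77 ± 0.19, edgeR adjusted p = 0.0985).

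Irf1, a factor induced by interferon gamma that acts on these GTPase genes in mouse cells, averaged 4.23 CPM in RL, 4.42 CPM in CL and 5.04 CPM in CTL, with RL minus CTL at -0.25 ± 0.23 (edgeR adjusted p = 0.735).

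Downstream, genes best known as targets of type I interferon and of interferon gamma were read from lists that leave out the GTPases. Of 24 type I targets, 6 rose in RL against CTL by edgeR and 18 did not pass, where 0.334% of all genes rose. At an unadjusted p under 0.05, 23 of the 24 were higher, DESeq2 called 18, and edgeR without CL 1 called 21, all of them higher in RL. The shares over all genes were 6.56% higher at that p, 2.05% called by DESeq2 and 3% called higher without CL 1. The 6 were the antiviral genes Ifi44 (1.87 ± 0.26 on the log2 scale, edgeR adjusted p = 0.0163), Isg15 (2.44 ± 0.34), Ifit1 (2.30 ± 0.37), Ifit3 (1.39 ± 0.23) and Bst2 (1.41 ± 0.27) and the factor Irf7 (2.64 ± 0.46). The list median was 1.40. Against CL, Ifi44 (1.77) and Ifit3 (1.63) rose by edgeR in the fit of all 9 libraries, where 0.0734% of all genes were called. With mouse as a block edgeR called 14 of the 24, where 0.34% of all genes were called higher. Without CL 1 it called 19, where 0.844% of all genes were called higher.

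Of 15 tested interferon gamma targets none was called by edgeR in RL against CTL, 4 were higher at an unadjusted p under 0.05, DESeq2 called 2 and the median was 0.29, beside 0.33 for the 10 GTPases. Without CL 1 edgeR called 4 of the 15. Over all genes the shares were 6.56% higher at that unadjusted p, 2.05% called by DESeq2 and 3% called higher without CL 1. Cxcl9, a chemokine that draws activated T cells, had 2.69, 1.42 and 2.01 CPM in RL 1 to 3, against 1.13, 0.508 and 0.481 CPM in CL 1 to 3 and 0.602, 0.648 and 0.506 CPM in CTL 1 to 3. All RL libraries were above all others, with a log2 fold change of 1.79 ± 0.35 for RL against CTL (edgeR adjusted p = 0.0523). Ciita, the activator of MHC class II genes, had 1.93 to 2.87 CPM in RL, against 0.677 to 5.39 CPM in CL, where CL 1 was the highest, and 0.527 to 0.620 CPM in CTL. The 6 brakes on interferon signalling had no called gene by edgeR, 2 were higher at an unadjusted p under 0.05, DESeq2 called 1 and edgeR without CL 1 called 2, with Usp18 nearest to the threshold (1.20 ± 0.27, edgeR adjusted p = 0.0764).

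**Figure D4:**
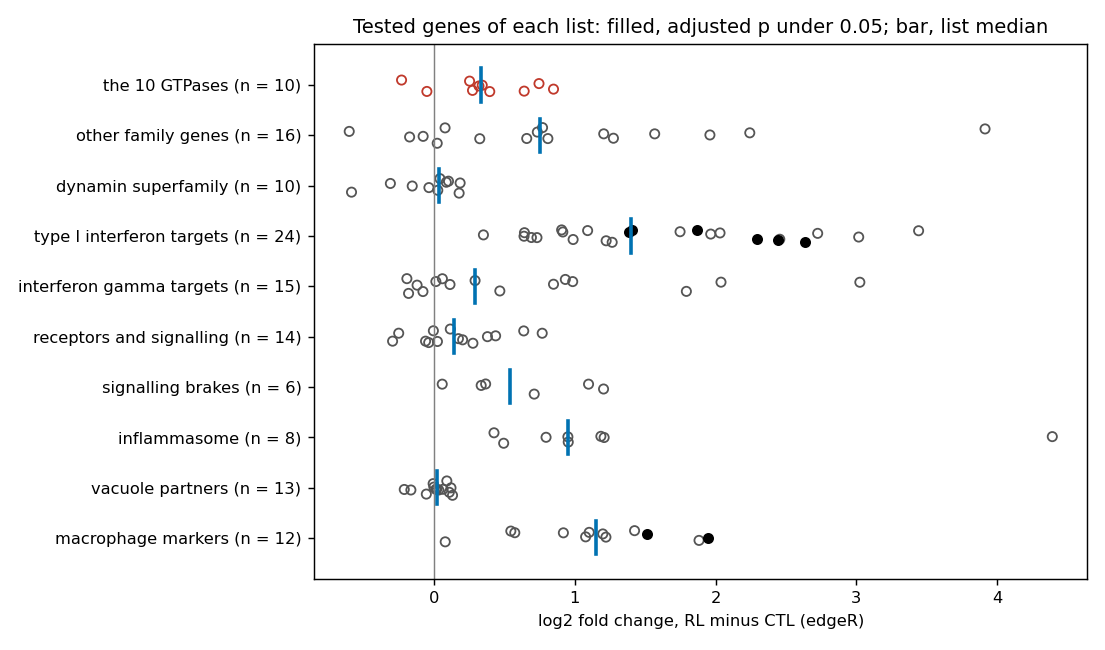
Log2 fold change of RL minus CTL (horizontal axis) for every tested gene of 10 lists, with filled points for genes under an adjusted p of 0.05 and a blue bar at the list median. The medians of the 10 GTPases (0.33) and the interferon gamma targets (0.29) lay below that of the type I targets (1.40), where 6 points are filled. Medians of the vacuole partners (0.02) and dynamin relatives (0.04) were near 0.

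None of the lists in this paragraph had a gene called by edgeR in RL against CTL with all libraries. The 13 autophagy conjugation and ubiquitin genes, which place these GTPases on vacuoles, ran from -0.21 (Map1lc3b) to 0.13 (Atg5), with a median of 0.02. Of these 0 were called by edgeR or DESeq2 and 1 was lower at an unadjusted p under 0.05. The 10 dynamin superfamily genes that are not known as interferon induced had a median of 0.04 and ran from -0.59 to 0.19. Of the 10, 0 were called by edgeR or DESeq2 and 1 was lower at an unadjusted p under 0.05, with all RL libraries below all CTL libraries. The 8 inflammasome genes had a median of 0.95, and all 8 had a positive log2 fold change. In 6 of them all RL libraries were above all CTL libraries, against 10.5% of all genes. They had 0 calls by edgeR or DESeq2, 1 call by edgeR without CL 1 and 4 higher at an unadjusted p under 0.05. Over all genes DESeq2 called 2.05%, edgeR without CL 1 called 3% higher and 6.56% were higher at that p.

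Among markers of other cell types, the macrophage sum and the T and NK sum were higher in every RL library than in every CTL library. The sums for fibro-adipogenic progenitors, B lymphocytes and endothelium overlapped between RL and CTL. The 13 macrophage and monocyte markers summed to 231, 167 and 229 CPM in RL 1 to 3, against 239, 109 and 143 CPM in CL 1 to 3 and 123, 102 and 87.1 CPM in CTL 1 to 3. RL lay above CTL, and CL 1 was the highest library of all. Of 12 tested macrophage markers Ccr2 (1.95 ± 0.24 on the log2 scale, edgeR adjusted p = 0.00937) and Itgam (1.51 ± 0.26, edgeR adjusted p = 0.0333) rose in RL against CTL. Of these 12, 11 were higher at an unadjusted p under 0.05, DESeq2 called 7 and edgeR without CL 1 called 10, all higher in RL. Over all genes 6.56% were higher at that p, and DESeq2 called 2.05%. EdgeR called 0.334% higher with all libraries and 3% higher without CL 1. The 8 markers of fibro-adipogenic progenitors summed to 1380 to 1390 CPM in RL, against 1440 to 1820 CPM in CL and 1180 to 1640 CPM in CTL, and their median log2 fold change for RL minus CTL was 0.10. Lum was the only one called by edgeR (0.71 ± 0.14, adjusted p = 0.0449), while DESeq2 and edgeR without CL 1 each called 2 higher. Of the 8, 5 had a positive log2 fold change, and values ran from -0.40 (Gsn) to 0.72. At an unadjusted p under 0.05 by edgeR, 2 were higher and 0 were lower.

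The 14 T and NK markers summed to 0.686 to 1.16 CPM in RL, against 0.193 to 12.9 CPM in CL and 0.197 to 0.276 CPM in CTL, with 1 to 5 of the 14 at 0 counts in each RL library and 7 to 10 in each CTL library. The 6 B lymphocyte markers summed to 25.8 to 49.0 CPM in RL, 32.8 to 79.5 CPM in CL and 22.7 to 32.9 CPM in CTL. The 8 endothelial markers summed to 178 to 217 CPM in RL, 177 to 202 CPM in CL and 184 to 207 CPM in CTL. None of the 8 was called by edgeR in RL against CTL, 2 were lower at an unadjusted p under 0.05, namely Tek (-0.59 ± 0.14, adjusted p = 0.0933) and Flt1 (-0.41 ± 0.16, adjusted p = 0.299), and DESeq2 and edgeR without CL 1 each called 1 lower. Log2 fold changes of the 8 ran from -0.59 to 0.37, and 4 were positive. Against CL, 2 of the 8 were higher and 1 was lower at an unadjusted p under 0.05 by edgeR. The part of these cell types in the GTPase levels was not tested.

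Genes whose pattern over the 9 libraries was most like that of the GTPases were found by the root mean square difference of centred log2 CPM to the members' mean profile. Among the 10 themselves Irgm1 (0.0549) and Gbp2 (0.0771) lay closest to that mean, and Gbp6 (0.300), Gbp3 (0.291) and Gbp4 (0.289) farthest. Outside the 10 the closest were Gas6 (0.0624), Pcbp3 (0.0741), Gm37954 (0.0964) and Pecam1 (0.0987), where the median of the other 14976 genes was 0.304. Pecam1 is an endothelial marker and had a log2 fold change of 0.23 for RL minus CTL, where the median of the 8 endothelial markers was 0.0084. These genes were read from the same 9 libraries and share their depth and scaling, and the closeness is a description with no test.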

How the data were processed

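Total RNA of the gastrocnemius was sequenced in 9 libraries. Whole-number counts of reads per gene were deposited by the authors, who used GRCm38.p5 and DESeq2, per the submitters' processing notes. Aligner, counter and strand setting were not given in the sources used here. The deposited result tables of the authors' own fit give a mean normalised signal, a log2 fold change, a test score and p-values before and after adjustment. Counts were tested with edgeR 4.0.16 (R 4.3.3, quasi-likelihood F test, TMM, edgeR's filter on low counts by group, Benjamini-Hochberg over 14986 genes, called under 0.05), all 9 libraries in 1 fit. SE is the size of the log2 fold change over the root of F. Alternatives were DESeq2 1.42.0, limma-voom (limma 3.58.1), other size factors, no filter, 2 groups alone, each library left out, the mouse of CL 1 and RL 1 left out, and mouse as a block. The labels name the mice, so RL and CL are paired by animal; deviations of same-mouse limbs correlated at 0.294, 0.429 and 0.0716. The labels give no batch. No 2 replicates agreed within counting noise (lowest chi-square per degree of freedom 16.4). The procedure was checked on simulated counts. Coordinates and exon lengths are from GENCODE vM21 (GRCm38), promoters from RefSeq. The genes, the 15 other lists and their tests were chosen with earlier results of these data known. All 10 members are named by rule, with the called and up to 3 lowest-p genes of each other list, the receptors Ifngr1, Ifngr2, Ifnar1 and Ifnar2, and Ifng and Irf1; 2 further genes that the rule names are not reported here. Other family genes beyond these are named for their values.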

Additional observations from a re-analysis of the deposited data

How the results depend on the processing

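Genes called in RL against CTL numbered 77, and 333 with DESeq2, 44 with limma-voom, 896 with no filter on low counts, 505 with the 2 groups alone, 291 without the mouse of CL 1 and RL 1, and 2 to 600 with 1 library left out. In RL against CL 11 were called, and 39 with DESeq2, 406 with no filter, 4 with the 2 groups alone, 20 without that mouse, 64 with mouse as a replicate block, and 1 to 136 with 1 library left out. In CL against CTL 0 were called, and 17 with DESeq2, 716 with no filter, and 0 to 1 with 1 library left out. Among the runs with 1 library left out, the first 2 comparisons had their highest counts without CL 1 (600 and 136).

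Of the 10 GTPases 0 were called in RL against CTL, and 1 (Gbp3) with DESeq2, the 2 groups alone or without that mouse, 2 (Gbp3 and Iigp1) with no filter, and 0 to 1 with 1 library left out, that 1 being Gbp3 without CL 1 or CL 2. In RL against CL 0 were called, and 2 with DESeq2, 3 with no filter or the mouse block, 1 (Gbp3) without that mouse, and 0 to 2 with 1 library left out. In CL against CTL 0 were called, and 1 (Gbp4, adjusted p = 0.0382) with no filter, and 0 with 1 library left out. The cause of these moves was not tested.

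Over 460 single-gene alternatives 420 kept their direction and side of the threshold, 19 passed it and 21 changed sign. None of these 21 was in RL against CL. In RL against CTL the sign changed only for Gbp7, between -0.125 and 0.0052. The other 19 were in CL against CTL, where with 1 library left out Gbp6 ran from -0.24 to 0.094, Gbp7 from -0.027 to 0.059, Gbp9 from -0.22 to 0.0064, Irgm2 from -0.11 to 0.23, Igtp from -0.13 to 0.12 and Iigp1 from -0.087 to 0.27, and where limma-voom gave Igtp -0.007 and the fit without that mouse gave Gbp7 -0.0014 and Irgm2 -0.11. Depth limits Gbp6 (22 to 61 counts), Gbp2b and the interferon genes most.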
